A study of Rattus norvegicus with 8 samples.

Results

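The Id family and the inhibitory SMADs of rat liver were examined under 2 diets: Id1, Id2, Id3 and Id4, which encode inhibitors of DNA binding, and Smad6 and Smad7, which encode inhibitory SMAD proteins. Members were found by matching the RefSeq accession printed for each array probe to a table of rat genes; 5 of the 6 genes had a probe, among 22863 features tested, and Smad6, for which no probe matched, is not analysed here. Id1 was measured by a probe printed in 10 spots, and the other genes each by a probe printed in 1 spot. The members were chosen by the measured diet difference of Id3, to which its relatives were added, so the Id3 difference is given as a description, without a test. The samples were livers of male rats aged 22 weeks, with total RNA from each sample on 1 single-colour array. In 5 samples the rats had eaten a high-fat diet for 14 weeks and carried the label NAFLD (non-alcoholic fatty liver disease), and in 3 samples they had eaten standard chow for 14 weeks and served as controls. The labels give no rat strain and do not say that each sample was a separate animal, so each p-value reflects only the scatter among these 8 arrays, which may be technical.

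Bone morphogenetic proteins (BMPs) bind paired type I and type II receptors, which phosphorylate SMAD1, SMAD5 and SMAD9; these join SMAD4 and switch on target genes, among which the Id genes, Smad6 and Smad7 are the best known. Id proteins carry a helix-loop-helix domain without a DNA-binding region and hold E proteins, the broadly expressed basic helix-loop-helix (bHLH) factors, away from DNA. SMAD6 dampens BMP signals and SMAD7 dampens both BMP and TGF beta signals. In liver, BMP6 from sinusoidal endothelial cells acts on hepatocytes through the co-receptor hemojuvelin (Hjv) to induce hepcidin (Hamp), the hormone that limits iron release.

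The promoter windows of 4 members are shown because their levels behaved differently on the arrays: Id3 differed between the diets, Id1 split the high-fat arrays, and Id4 and Smad7 did neither. The windows are RefSeq sequences on the GRCr8 assembly, from 250 bases before to 50 bases after an annotated transcript start, matched by gene symbol for 5 of the 6 genes. Capitals mark matches, on either strand, to 4 motifs that did not overlap one another here. The first is the GC-rich element bound by BMP SMADs, spelled GGCGCC. The second is the palindromic SMAD element, spelled GTCTAGAC. The third is an E-box, the kind of site that E proteins bind, searched here in the form CAGCTG. The last is the TATA box, a core promoter element that positions the start of transcription, searched as TATAAA.
Id3, plus strand, chr5:153656041-153656340: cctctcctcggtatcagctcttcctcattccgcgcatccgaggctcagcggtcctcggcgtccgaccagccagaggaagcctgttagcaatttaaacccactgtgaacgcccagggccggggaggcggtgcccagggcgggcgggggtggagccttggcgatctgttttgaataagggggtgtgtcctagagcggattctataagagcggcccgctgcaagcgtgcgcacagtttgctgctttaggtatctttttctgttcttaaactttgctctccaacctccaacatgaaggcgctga
Id1, plus strand, chr3:161671314-161671613: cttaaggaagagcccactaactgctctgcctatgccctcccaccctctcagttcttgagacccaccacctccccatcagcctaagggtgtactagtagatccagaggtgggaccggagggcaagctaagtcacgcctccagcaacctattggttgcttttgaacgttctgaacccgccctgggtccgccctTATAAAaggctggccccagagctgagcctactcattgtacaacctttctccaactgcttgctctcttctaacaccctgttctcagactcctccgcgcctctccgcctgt
Id4, minus strand, chr17:16598244-16598543: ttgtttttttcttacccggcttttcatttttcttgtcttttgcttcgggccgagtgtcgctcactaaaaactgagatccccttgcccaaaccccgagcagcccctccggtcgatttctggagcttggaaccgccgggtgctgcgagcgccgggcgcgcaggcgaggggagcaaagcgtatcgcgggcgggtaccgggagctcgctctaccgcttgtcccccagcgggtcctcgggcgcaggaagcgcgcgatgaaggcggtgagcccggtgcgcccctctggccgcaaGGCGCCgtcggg
Smad7, plus strand, chr18:71263258-71263557: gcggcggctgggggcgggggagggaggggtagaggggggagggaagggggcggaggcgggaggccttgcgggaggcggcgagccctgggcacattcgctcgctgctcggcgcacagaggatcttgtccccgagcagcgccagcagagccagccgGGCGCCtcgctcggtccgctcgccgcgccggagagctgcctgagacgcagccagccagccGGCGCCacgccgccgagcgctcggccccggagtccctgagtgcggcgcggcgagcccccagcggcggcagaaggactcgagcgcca

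GGCGCC occurred 1 time in the Id4 window and 2 times in the Smad7 window, and 11.02% of 33469 rat promoter windows of the same length held it. The Smad7 matches lay before the annotated start, but the Id4 match lay 38 bases after it. The annotated start of Id4 falls on the letters atg, those of a start codon. Read as codons from that atg, the Id4 window holds no stop codon to its end, so the match lies in an open reading frame. Whether transcription of Id4 begins at the annotated start was not tested. TATAAA occurred in the Id1 window (14.2% of all windows), and CAGCTG occurred in the Id2 window (15.1% of all windows), which is not printed. GTCTAGAC was in none of these 5 windows (0.197% of all), and the Id3 window held none of the 4 motifs. These matches describe the letters only.

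The arrays were bright enough to measure every member that had a probe. Between 79.0% and 92.7% of probes exceeded background clearly on the high-fat arrays, against 66.9% to 71.7% on the chow arrays, and the 75th percentile of the signal was 725 to 1045 intensity units on high-fat arrays against 278 to 559 on chow arrays. High-fat arrays 1 and 4 shared a scan on day 2, high-fat arrays 2, 3 and 5 shared a scan on day 1, and the 3 chow arrays shared another scan on day 1, so scan and diet cannot be told apart. All 12 hepatocyte markers were well above background on all 8 arrays. Of the listed markers of hepatocytes and 7 other cell types, 0 of 67 measured passed in limma (adjusted p over all features) and 12 had an unadjusted p under 0.05, against 20.2% of all features; the summed level of each of these lists overlapped between the diets. The log2 differences of the 12 hepatocyte markers were all below 0, with a median of −0.37. Most of these markers were among the 2287 brightest features, whose median difference was itself −0.24. The 10 measured endothelial markers, from the cells that make BMP6, had a summed signal of 32.1 to 35.8 times the 75th percentile on high-fat arrays and 35.7 to 36.9 times on chow arrays, and the part of cell composition in the results was not tested.

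Id3 was higher in every high-fat liver than in every chow liver. With levels given as log2 signal after subtracting the log2 75th percentile of the same array, Id3 stood at −0.21, −1.06, −0.61, −0.62 and −1.30 on high-fat arrays 1 to 5, against −3.85, −3.60 and −3.88 on chow arrays 1 to 3. The groups were separated by more than the whole range of either (1.09 in high-fat livers, 0.28 in chow livers). The mean level was −0.76 ± 0.43 (SD, n = 5) in high-fat livers and −3.77 ± 0.15 (SD, n = 3) in chow livers, a log2 difference of 3.01 ± 0.25 (SE), or 8.07-fold. It ranked 24th of 22863 features by increase. In whole liver, a change in the number of cells of a type and a change in RNA per cell cannot be told apart. Within the high-fat livers the difference from the chow mean was 2.78 for the arrays of scan day 1 and 3.36 for those of day 2.

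The size of the Id3 difference depended on how the signal was computed. The processed signal of the Id3 spot was 626, 435, 684, 477 and 354 intensity units on high-fat arrays 1 to 5, against 20.8, 46.2 and 18.9 on chow arrays 1 to 3. All 8 spots were well above background, but the chow signals were dim: their error, as estimated in the scanner files, was 14.7% to 18.1% of the signal, against at most 10.1% on the high-fat arrays. With a normexp background, which started from raw median spot and background signals and added an offset of 50 units, the log2 difference was 1.43 (1.72 relative to the median of all features in that setting), and with normexp and quantile normalization together it was 1.76. In the 12 other alternatives for scaling, probe filter, weights, scans and blocks it ran from 2.78 to 3.36, and on leaving out each array in turn from 2.88 to 3.15.

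**Figure D1:**
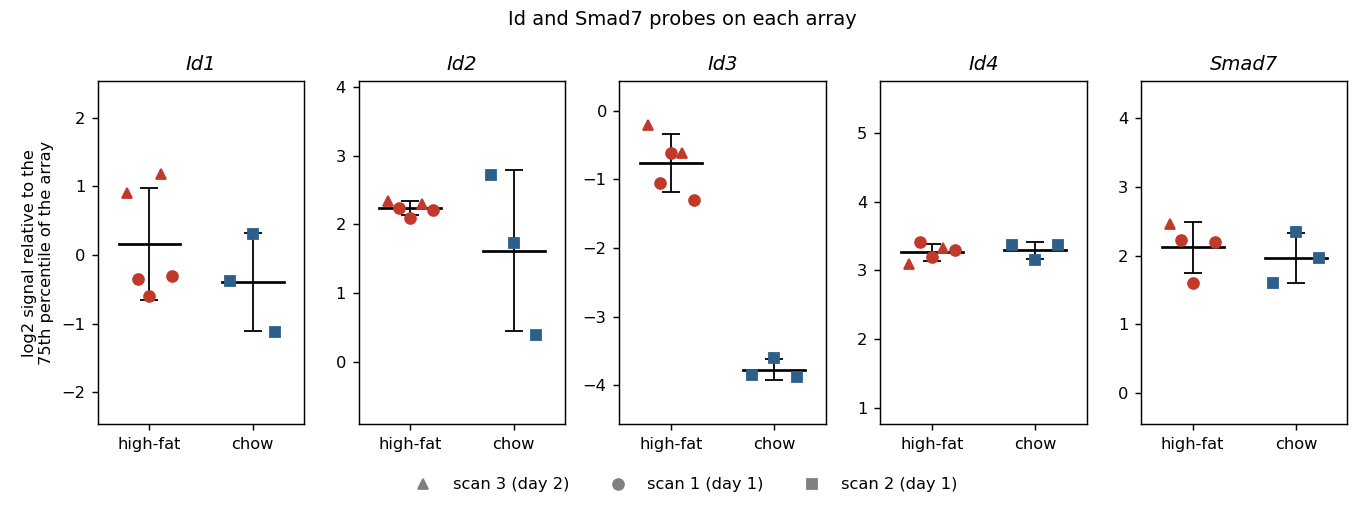
Each panel shows 1 gene, with the log2 signal relative to the 75th percentile of the array on a vertical axis of the same span in all panels. Points are arrays (red high-fat, blue chow), shapes are scans, and bars are the mean ± SD; only the Id3 panel has no overlap between the diets, and the Id1 triangles (high-fat arrays 1 and 4) stand above the other high-fat arrays.

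None of the measured relatives of Id3 passed the test. Of the 5 members with a probe, 1 passed an adjusted p of 0.05 in limma, and that was Id3 itself, whose difference chose the set; 3.56% of all features passed. In 1 of the 5, again Id3, the diets did not overlap, against 17.1% of all features (7.92% with all high-fat values above and 9.17% with all below the chow values). Smad7, Id1, Id2 and Id4 had 95% intervals for the log2 difference that ended at 0.77, 1.69, 1.61 and 0.29, and for Id1 and Id2 they included increases above 2-fold. Whether these genes differed from Id3 was not tested.

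Id1, the BMP target most often used as a readout of the pathway, differed more within the high-fat livers than between the diets. Its level was 0.90, −0.34, −0.60, 1.18 and −0.31 on high-fat arrays 1 to 5, against −0.38, 0.31 and −1.12 on chow arrays 1 to 3. High-fat arrays 1 and 4 were the highest of all, and the other 3 high-fat arrays lay within the chow range. The mean level was 0.16 ± 0.81 (SD, n = 5) in high-fat livers and −0.40 ± 0.71 (SD, n = 3) in chow livers, a log2 difference of 0.56 ± 0.49 (SE, limma adjusted p = 0.581). High-fat arrays of scan day 2 averaged 1.04 and those of day 1 averaged −0.42, a gap of 1.46 that 6.47% of all features equalled or exceeded. Against chow the difference was 1.44 for the high-fat arrays of day 2 and −0.02 for those of day 1. The 10 spots of the probe agreed within each array, with a coefficient of variation of 2.08% to 8.41%. Scan and liver cannot be told apart here.

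Id2, an Id protein also known for its role in innate lymphoid cells, was nearly constant in the high-fat livers and scattered in the chow livers. Its level was 2.35, 2.23, 2.09, 2.30 and 2.22 on high-fat arrays 1 to 5, against 2.73, 1.73 and 0.39 on chow arrays 1 to 3. The high-fat values fell between the first and second chow arrays, and the third chow array was the lowest of all. The mean level was 2.24 ± 0.10 (SD, n = 5) in high-fat livers and 1.62 ± 1.17 (SD, n = 3) in chow livers, a log2 difference of 0.62 ± 0.43 (SE, limma adjusted p = 0.469). Only 1.40% of features had a range on the chow arrays as wide as the 2.34 of Id2. Without chow array 3 the Id2 difference was 0.01.

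Id4, best known for its role in neural precursors, was nearly level on all 8 arrays. Its level was 3.09, 3.41, 3.19, 3.33 and 3.30 on high-fat arrays 1 to 5, against 3.37, 3.15 and 3.37 on chow arrays 1 to 3, with all chow values inside the high-fat range. The mean level was 3.26 ± 0.12 (SD, n = 5) in high-fat livers and 3.29 ± 0.13 (SD, n = 3) in chow livers, a log2 difference of −0.03 ± 0.14 (SE, limma adjusted p = 0.935) with a 95% interval from −0.35 to 0.29. The sign of so small a difference turned with the scaling, and was 0.13 after quantile normalization.

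Smad7, the inhibitory SMAD of both pathways, showed no detectable difference. Its level was 2.47, 2.22, 1.60 and 2.20 on high-fat arrays 1, 2, 3 and 5, against 1.61, 2.34 and 1.96 on chow arrays 1 to 3. The spot on high-fat array 4 was marked as an outlier in the scanner file and left out; with it the level there was 2.55. The mean level was 2.12 ± 0.37 (SD, n = 4) in high-fat livers and 1.97 ± 0.37 (SD, n = 3) in chow livers, a log2 difference of 0.15 ± 0.26 (SE, limma adjusted p = 0.807), and 0.23 with the marked spot kept. High-fat array 3 and chow array 1 shared the lowest values, and the groups overlapped over nearly their whole range.

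Among BMP ligands, 2 of 14 measured genes passed, both higher (Bmp6 and Gdf9), against 3.07% of all features called higher; the median log2 difference was 0.40 and that of all features −0.01. Of these 14 ligands 5 were not well above background on any chow array, and the median difference over the 2286 dimmest features was 0.51. Probes well above background on at least 3 arrays were kept. Bmp6 and Gdf9 met this only through the high-fat arrays, so the filter favoured their direction. Among probes well above background on all 8 arrays, 0 of 6 ligands passed. Bmp6, the ligand that drives hepcidin, had levels of −4.49, −4.78, −4.28, −4.56 and −4.50 on high-fat arrays 1 to 5, against −6.94, −5.97 and −6.23 on chow arrays 1 to 3. Its spot was well above background in 5 of 5 high-fat livers but in 0 of 3 chow livers, so the size of its fold is uncertain. Against the lowest signal well above background on each chow array, the high-fat mean was 1.29-fold higher, without counting sampling error. A spot that failed can exceed that lowest signal, so this sets no minimum for the rise. The fitted log2 difference of Bmp6 was 1.86 (limma adjusted p = 0.00433). This difference turned to −0.52 with a normexp background (adjusted p = 0.318, and −0.23 relative to all features). With normexp and quantile normalization together it was 0.076 (adjusted p = 0.632). Gdf9, a growth factor of the ovarian follicle, passed (adjusted p = 0.0295) but was well above background on 4 high-fat arrays and 0 chow arrays, its signal there allowed no fold, and its log2 difference was −0.75 with normexp; the Gdf9 call held on leaving out an array in 2 of 8 cases, the Bmp6 call in 8 of 8. With the shared scan as a random block both calls were lost (adjusted p = 0.143 for Bmp6 and 0.377 for Gdf9). Bmp2, a second ligand of the hepcidin axis, had a log2 difference of 0.47 ± 0.25 (SE, adjusted p = 0.322), and Gdf2, which encodes the circulating ligand BMP9, 0.32 ± 0.20 (SE, adjusted p = 0.42).

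No receptor or signal-carrying SMAD passed in the main setting, and Smad9 passed in 2 alternatives. With normexp and quantile normalization together 2 receptors or co-receptors were called lower, and with array weights 2 were called lower. Of 13 measured receptors and co-receptors 0 passed in limma and 3 had an unadjusted p under 0.05 (20.2% of all features did), with a median log2 difference of −0.05. The type I receptors Bmpr1a, Acvr1 and Acvrl1 had log2 differences of 0.04, 0.07 and 0.16, and the type II receptor Bmpr2 −0.05 (limma adjusted p from 0.549 to 0.945), and each of these 4 changed sign in at least 1 alternative. Eng, the endothelial co-receptor endoglin, had −0.15, and Hjv had −0.39 ± 0.25 (SE, adjusted p = 0.43). The type I receptor Bmpr1b had a probe that did not pass the brightness filter. Of 12 measured SMADs and cofactors 0 passed in limma and 3 had an unadjusted p under 0.05, again near the 20.2% of all features, with a median of −0.01. Smad1, Smad5, Smad9 and Smad4 had log2 differences of 0.25, −0.47, −0.83 and −0.13 (limma adjusted p = 0.517, 0.203, 0.213 and 0.69). Smad9, a receptor SMAD that is itself a BMP target, was called lower with quantile normalization (−0.93, adjusted p = 0.0366) and in the authors' deposited table (−0.92, adjusted p = 0.0358). Smad5 was −1.36, −1.57, −1.41, −1.69 and −1.72 in the high-fat livers, against −1.31, −1.23 and −0.70 in the chow livers, without overlap.

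The other BMP-responsive genes gave no calls in the main setting. Of 23 measured genes 0 passed in limma and 5 had an unadjusted p under 0.05 (against 20.2% of all features), the median log2 difference was −0.02, and 10 of the 23 had positive values. Hamp had levels of 6.44, 6.26, 6.31, 6.53 and 6.38 on high-fat arrays 1 to 5, against 6.91, 6.24 and 7.13 on chow arrays 1 to 3. The groups overlapped through chow array 2, and the log2 difference was −0.37 ± 0.21 (SE, adjusted p = 0.355), the same as the median of the hepatocyte markers. Hamp was also among the 2287 brightest features, whose median difference was −0.24. With quantile normalization the Hamp difference was −0.015, and with normexp and quantile normalization together −0.044. Atoh8, a bHLH factor induced by BMP in hepatocytes, had levels of 0.87, 0.83, 0.43, 0.84 and 0.69 on high-fat arrays against 1.25, 1.13 and 1.46 on chow arrays. All 5 high-fat values were below all 3 chow values, opposite in sign to Id3, and the log2 difference was −0.54 ± 0.16 (SE, adjusted p = 0.107). Atoh8 passed in 2 alternatives, with array weights (−0.52, adjusted p = 0.0304) and with normexp and quantile normalization together (−0.42, adjusted p = 0.0489). Bambi, a decoy receptor that BMP and TGF beta signals induce, had −0.10 (adjusted p = 0.84). Msx2, a homeobox target, had 0.48 (adjusted p = 0.237), was well above background on 1 chow array, and had −0.29 with a normexp background. Of 16 measured antagonists 0 passed in limma and 1 had an unadjusted p under 0.05, with a median of −0.05; Nog, the secreted BMP antagonist noggin, was well above background on 5 high-fat and 0 chow arrays. The diets overlapped for Nog: high-fat array 1 was at −4.95, below chow arrays 2 and 3 (−4.85 and −4.71). With dimmer chow signals raised to the lowest signal well above background, its high-fat mean was 1.31-fold higher, without counting sampling error. This is no minimum, because the Nog spot of chow array 2 failed although it lay above that lowest signal (−5.04). Nog did not pass in limma (adjusted p = 0.266), and the 95% interval of its fitted log2 difference ran from −0.05 to 2.22. The difference was −0.30 with a normexp background.

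**Figure D2:**
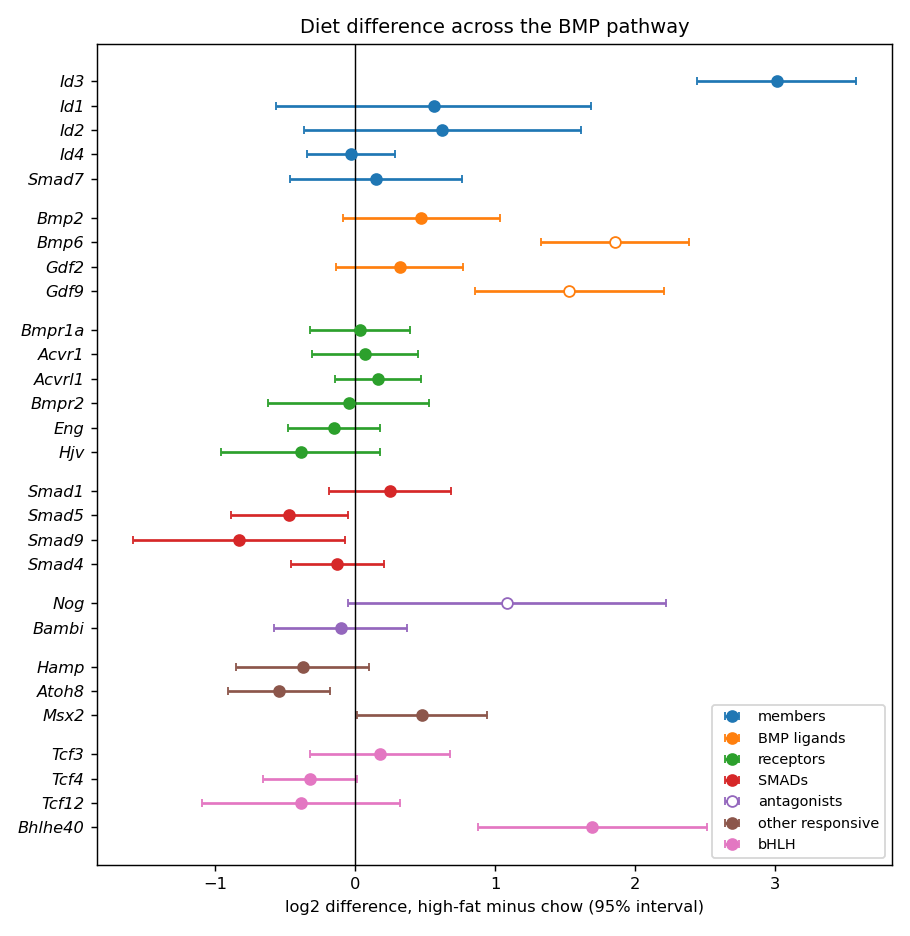
Points are log2 differences, high-fat minus chow, and bars are 95% intervals from limma; open points are genes that were well above background on no chow array. Id3 stands at 3.01, to the right of all other genes drawn. The intervals of the receptors drawn and of hepcidin include 0. Those of Smad5, Smad9 and Atoh8 lie below 0, and those of Bmp6, Gdf9, Msx2 and Bhlhe40, like that of Id3, lie above 0. The intervals are not adjusted for the number of features, and Smad5, Smad9, Atoh8 and Msx2 did not pass. That of Id3 is a description only, because its difference chose the set. Bmp6 and Gdf9 met the brightness filter only through the high-fat arrays, which favoured their direction.

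The listed genes of E proteins and other bHLH factors were called about as often as all features. Of 22 measured E proteins and other bHLH genes 1 passed, Bhlhe40, against 3.56% of all features, and the median log2 difference was 0.07. The E protein genes Tcf3, Tcf4 and Tcf12 had log2 differences of 0.18, −0.32 and −0.39 (limma adjusted p = 0.717, 0.268 and 0.54). Bhlhe40, a repressor linked to the circadian clock and to TGF beta responses, had levels of −1.27, −1.22, −0.55, −2.29 and −1.81 on high-fat arrays 1 to 5, against −3.40, −3.08 and −2.89 on chow arrays 1 to 3. The diets did not overlap, and the log2 difference was 1.70 ± 0.36 (SE, limma adjusted p = 0.0405). The Bhlhe40 call remained in 2 of the 8 cases when an array was dropped and was lost with a normexp background (0.62, adjusted p = 0.231) and with the shared scan as a random block (1.66, adjusted p = 0.565). Bhlhe40 was also the single call among 20 measured genes of the TGF beta list, whose median was −0.08.

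The genes whose levels were most like those of Id3 were RT1-CE11, Ptges3l1, Hsd3b2, Ccng1 and Tcf7l1, ranked by Pearson correlation over the 8 arrays among 10711 other named genes well above background on all of them. Their correlations were 0.987, 0.980, 0.978, 0.978 and 0.974; the arrays share 2 diets and 3 scans, and any gene that differs strongly between the diets scores high on this measure. With the mean of each diet removed the correlations were 0.70, 0.72, 0.40, 0.80 and 0.72. RT1-CE11, an MHC class I gene, differed by 1.65, Ptges3l1 by 1.42, Hsd3b2, a steroid dehydrogenase, by 1.47, Ccng1, the p53-induced cyclin G1, by 1.51, and Tcf7l1, a transcription factor of the Wnt pathway, by 1.20 on the log2 scale. In each of them, as in Id3, the diets did not overlap. By the same measure, with the diet means left in, Id1 ranked 1360th (correlation 0.484), Id2 1472nd (0.461) and Id4 5896th (−0.280). Smad7, without a value on high-fat array 4, was not ranked. With the mean of each diet removed, the correlations with Id3 were 0.62 for Id1, 0.08 for Id2 and −0.73 for Id4. For Smad7 the value was 0.19 over 7 arrays.

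**Figure D3:**
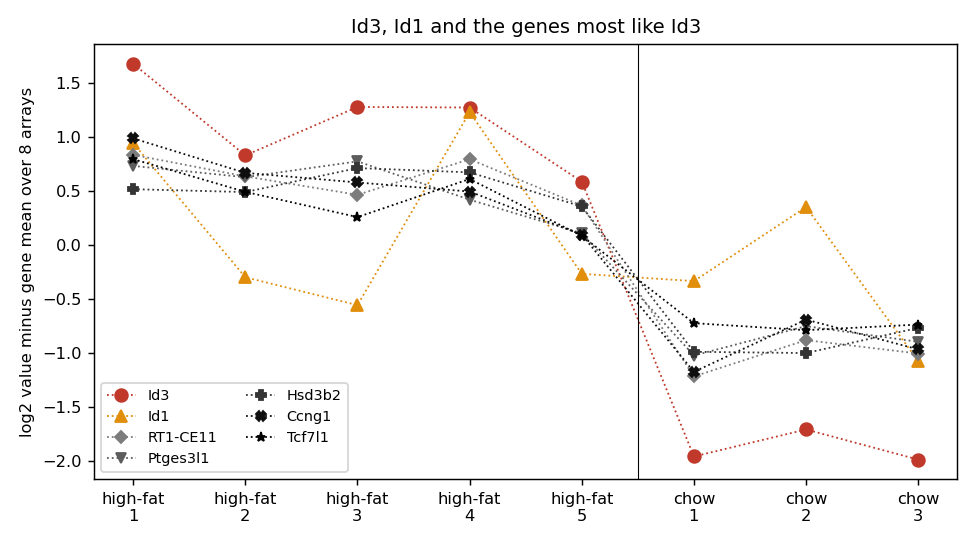
The vertical axis is the log2 level of each gene minus its own mean over the 8 arrays, and dotted lines only join values of the same gene. Id3 and the 5 genes most like it are above 0 on all 5 high-fat arrays and below 0 on all 3 chow arrays, while Id1 is above 0 on high-fat arrays 1 and 4 and on chow array 2.

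**Figure D4:**
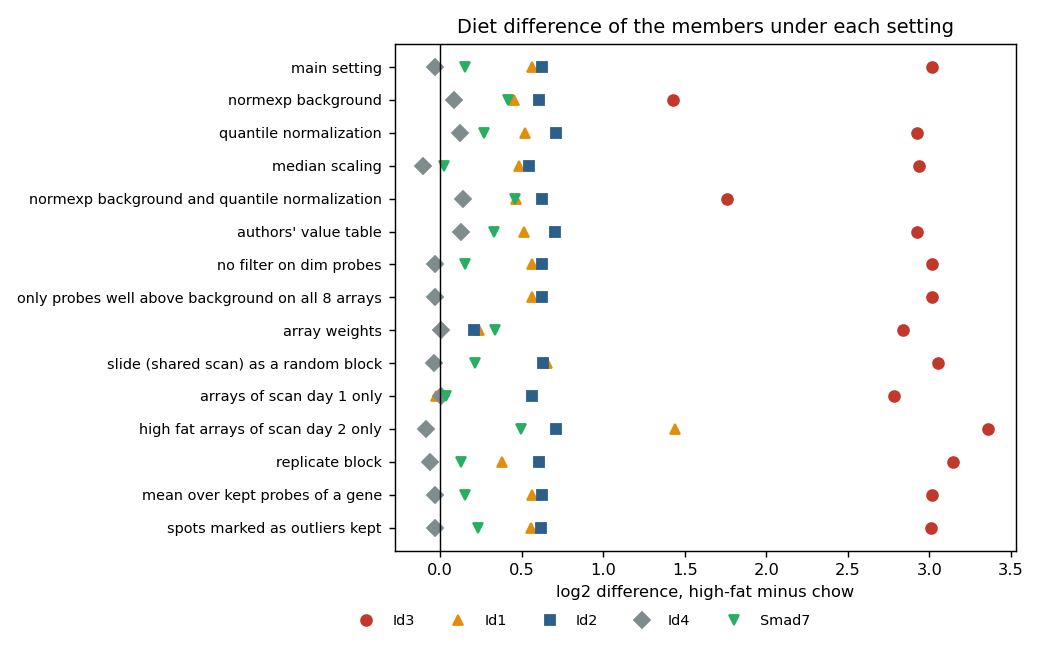
Points are log2 differences, high-fat minus chow, of the 5 measured members under the main setting (top) and each alternative. Id3 lies at 1.43 and 1.76 in the 2 settings with a normexp background and at 2.78 or above in the others, and Id4 stays close to 0.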

How the data were processed

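Total RNA of 8 rat liver samples was measured on single-colour Agilent arrays. The deposited intensity values are, per the file headers, background-subtracted and detrended spot signals from Agilent Feature Extraction 11.0.1.1, without scaling between arrays. A deposited table of log2 values with equal distributions on all 8 arrays, whose making is not given in the sources used here, served as an alternative. Spots marked as outliers were removed, spots of a probe averaged, and the log2 75th percentile of each array subtracted. Probes with at least 0.5 of their spots well above background on at least 3 arrays were kept. A gene took its probe with the highest mean, named through RefSeq accessions and the GRCr8 gene table. The array design used rn4, so no probe positions are given. High-fat and chow arrays were compared with limma 3.58.1 (R 4.3.3), with Benjamini-Hochberg adjustment over 22863 features and a threshold of 0.05. For the folds of Bmp6 and Nog, chow signals below the lowest signal well above background on the same array were raised to it. This sets no minimum for a fold. No spot was saturated, and the number of arrays limits precision. On simulated data with 200 changed features, 30% of log2 changes of size 1 and 92% of size 3 were recovered. Because mean spot signals were not in the tables used, the normexp alternative used median spot and background signals. Named genes were the members, a set of chosen pathway genes named whatever their p, up to 5 genes past the threshold per list, and the 5 genes most like Id3. The members and lists were chosen with earlier results of these data known. Alternatives covered background, scaling, filter, weights, scans, blocks and single arrays; keeping outlier spots was added after seeing the data. Smad6 is not analysed here.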

Additional observations from a re-analysis of the deposited data

How the results depend on the processing

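Id3 was higher on the high-fat arrays in all 22 alternatives run, and Id1, Id2, Id4 and Smad7 passed in none of them. Of all features, 815 were called in the main setting (703 higher, 112 lower). With a normexp background 149 features were called, along with 0 BMP ligands, 0 TGF beta genes and 0 bHLH genes; Id3 differed by 1.43, Id4 by 0.085, Bmp6 by −0.52, Bmpr1a by −0.27, Acvrl1 by −0.18, Nog by −0.30, Msx2 by −0.29 and Gdf9 by −0.75, while the median of all features moved to −0.29. With normexp and quantile normalization together 2112 features were called (1035 higher, 1077 lower), with 1 BMP ligand, 2 receptors, 3 other BMP-responsive genes and 2 TGF beta genes; Id3 differed by 1.76, Id4 by 0.14, Bmpr1a by −0.26, Eng by 0.050, Smad4 by 0.045 and Gdf9 by −0.052. Quantile normalization alone called 1092 features (798 higher, 294 lower) and the authors' deposited table of log2 values called 1139 (829 higher, 310 lower), each with 1 SMAD or cofactor and 1 other BMP-responsive gene, which are the same gene, Smad9, and with Id4 at 0.13. Median scaling gave 2 bHLH genes, Bmpr1a at −0.039 and Acvr1 at −0.0054. Without the filter on dim probes 1095 features were called (699 higher, 396 lower), with 2 bHLH genes. Over probes well above background on all 8 arrays 486 were called (355 higher, 131 lower), with 0 BMP ligands and no value for Smad7, Bmp6, Nog, Msx2 and Gdf9. Array weights called 3774 (2195 higher, 1579 lower), with 5 BMP ligands, 2 receptors, 2 antagonists, 3 other BMP-responsive genes, 3 TGF beta genes and 3 bHLH genes, and Id4 at 0.0053. With the shared scan as a random block (within-scan correlation 0.450) 85 features were called (85 higher, 0 lower), with 0 BMP ligands, 0 TGF beta genes and 0 bHLH genes. The arrays of scan day 1 alone called 2904, with 6 BMP ligands, 1 SMAD or cofactor, 1 antagonist, 3 other BMP-responsive genes and 3 bHLH genes; Id1 differed by −0.022, Id4 by 0.0062, Bmpr1a by −0.033 and Tcf3 by −0.049. The high-fat arrays of scan day 2 against chow called 1979 (998 higher, 981 lower), with 1 BMP ligand, 1 SMAD or cofactor, 3 antagonists, 0 TGF beta genes and 2 bHLH genes. The labels give both diets replicate numbers 1 to 3, but same-numbered arrays hardly deviated together (correlations of 0.045, 0.0347 and 0.0654), and not every array correlated best with its own number. With the number as a replicate block 4 features were called (4 higher, 0 lower), 0 of them members, BMP ligands, TGF beta genes or bHLH genes; Id3 differed by 3.15, Acvr1 by −0.0031 and Bmpr2 by 0.060.

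On leaving out each array in turn, 374 to 789 features were called, with 455 without high-fat array 2 and 374, 440 and 432 without chow arrays 1, 2 and 3. BMP ligands gave 1 to 2 calls, TGF beta genes 0 to 1 and bHLH genes 0 to 1. The log2 difference ran from −0.10 to 0.013 for Id4, from −0.031 to 0.34 for Smad7, from −0.025 to 0.19 for Acvr1, from −0.019 to 0.11 for Bmpr1a, from −0.19 to 0.066 for Bmpr2 and from −0.28 to 0.17 for Bambi. The cause of these changes was not tested. Dim chow signals limit Bmp6, Gdf9, Nog and the size of the Id3 difference.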

Other observations

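Some listed genes that did not pass in limma had diets that did not overlap on the arrays; they were chosen after their values were seen, and 17.1% of all features had no overlap. Tob1, an antiproliferative partner of SMADs, had levels of 2.99, 1.59, 1.74, 3.26 and 1.33 on high-fat arrays 1 to 5, against 0.92, 1.03 and 0.63 on chow arrays 1 to 3 (log2 difference 1.32, adjusted p = 0.161). As for Id1, high-fat arrays 1 and 4, which shared the scan of day 2, were the highest for Tob1. Cdkn1a, the cell cycle inhibitor p21, was higher in all high-fat samples, with a log2 difference of 0.78 (adjusted p = 0.118). Lower in all high-fat samples was Tgfb1, a TGF beta ligand of liver fibrosis, with −0.61 (adjusted p = 0.107). So was Tfr2, a transferrin receptor that takes part in hepcidin control, with −0.40 (adjusted p = 0.149). The median difference over features about as bright as Tfr2 was −0.15. Hfe, from the same list of receptors and co-receptors, went the other way, higher in all high-fat samples, with 0.28 (adjusted p = 0.26).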
